A study of Mus musculus with 32 samples.

Results

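Pttg1 encodes securin, and its transcript, 1 of 8251 genes with a probe set of their own, was followed in the hippocampus of 8 inbred mouse strains. Every probe set whose only gene symbol in the platform annotation is Pttg1 was taken, which gave 2 of the 12422 non-control probe sets on the array, 101027_s_at and 101026_at. The study compared untreated mice of the strains C57BL/6J, BALB/cByJ, SJL/J, C3H/HeJ, FVB/NJ, DBA/2J and A/J, and the strain of the arrays titled hippocampus_129S1SvImJ, which is named by that title here, to relate gene expression to strain differences in behaviour. The labels state neither sex nor age. Each strain was 1 RNA pool of 6 mice, made into 1 cDNA, from which cRNA was made in 2 separate preparations. Each preparation was hybridised to 2 Affymetrix U74Av2 arrays, so that 32 arrays were read, with arrays 1 and 2 of a strain carrying preparation 1 and arrays 3 and 4 carrying preparation 2. For FVB/NJ array 2 this assignment is uncertain, because it was read on the day of other strains' array 3 and its sense-strand control signal (5.33, log2) was near those of FVB/NJ arrays 3 and 4 (5.09 and 5.62) and not that of array 1 (7.39). The 4 arrays of a strain are technical replicates of 1 pool. P-values below therefore measure the spread of preparations and arrays, and the spread between animals of a strain was not measured.

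Securin binds separase and holds it inactive until anaphase. When all chromosomes are attached to the spindle, the anaphase-promoting complex marks securin for destruction, and the freed separase cuts the cohesin ring that holds sister chromatids together. The gene is also known as pituitary tumour-transforming gene because it is abundant in many tumours. In the adult hippocampus most cells are neurons and glia that no longer divide, and dividing progenitors sit mainly in the dentate gyrus.

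Pttg1 lies on chromosome 11, and the sequence around one of its annotated transcription starts is shown because the RefSeq reference strain, C57BL/6J, is the strain that differs from the others below. The RefSeq window (build GRCm38.p6, chr11:43425932-43426231, minus strand) runs from 250 bases before that start to 50 bases after it. Other annotated starts of the gene lie outside it, and the sequence of the other strains was not analysed here.
Pttg1 start region: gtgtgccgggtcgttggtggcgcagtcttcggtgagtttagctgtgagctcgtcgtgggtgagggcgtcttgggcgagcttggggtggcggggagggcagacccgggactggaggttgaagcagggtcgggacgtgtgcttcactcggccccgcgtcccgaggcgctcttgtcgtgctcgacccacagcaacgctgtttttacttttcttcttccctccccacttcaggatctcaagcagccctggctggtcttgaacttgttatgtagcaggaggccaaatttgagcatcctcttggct
The window is 60.3% G and C and holds 20 CpG pairs, against medians of 52.7% and 7 over 32851 windows of this length. On either strand it holds none of 5 motifs that were searched, so no base is in capitals. These were the CCAAT box (CCAAT), which 37.4% of all windows hold, the cell cycle homology region (TTTGAA, 17.9%), the GC box (GGGCGG, 35.7%), the TATA box (TATAAA, 13.6%) and an E-box (CACGTG, 7.15%). Absence of a match says only that these letters are not in this window.

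Pttg1 signal on 101027_s_at was highest in C57BL/6J, at 2.65 to 3.83 times the level of each other strain. The 4 arrays of C57BL/6J read 332.5, 394.7, 261.4 and 270.3 (arrays 1 to 4, deposited linear signal). The 28 arrays of the other strains read from 71.1 to 147.7, so the groups did not overlap. Of 7453 tested probe sets, 36 (0.483%) had all 4 arrays of C57BL/6J above all 28 others. Because the tissue is a mixture of cells, more cells that express Pttg1 and more Pttg1 RNA per cell cannot be told apart. Probe sequences were not at hand, so a strain variant under a probe, which could alter the signal without a change in RNA, was not tested.

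The next strain was BALB/cByJ, with 132.7, 147.7, 78.5 and 122.9 on arrays 1 to 4. SJL/J read 82.0, 136.9, 88.5 and 116.6. Within preparation 1 the 2 arrays of SJL/J lay further apart than the means of any of these 7 strains, given below. C3H/HeJ read 124.7, 108.2, 95.5 and 85.3, and FVB/NJ read 102.1, 101.6, 98.0 and 95.9. The arrays of FVB/NJ were the closest to each other of any strain, with an SD of 0.04 on the log2 scale. DBA/2J read 86.3, 105.0, 74.6 and 93.8, and A/J read 82.0, 80.3, 76.4 and 104.3. The lowest strain was hippocampus_129S1SvImJ, with 82.7, 87.9, 71.1 and 83.8. All 7 of these strains overlapped with at least one other of the 7 at the level of single arrays.

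**Figure D1:**
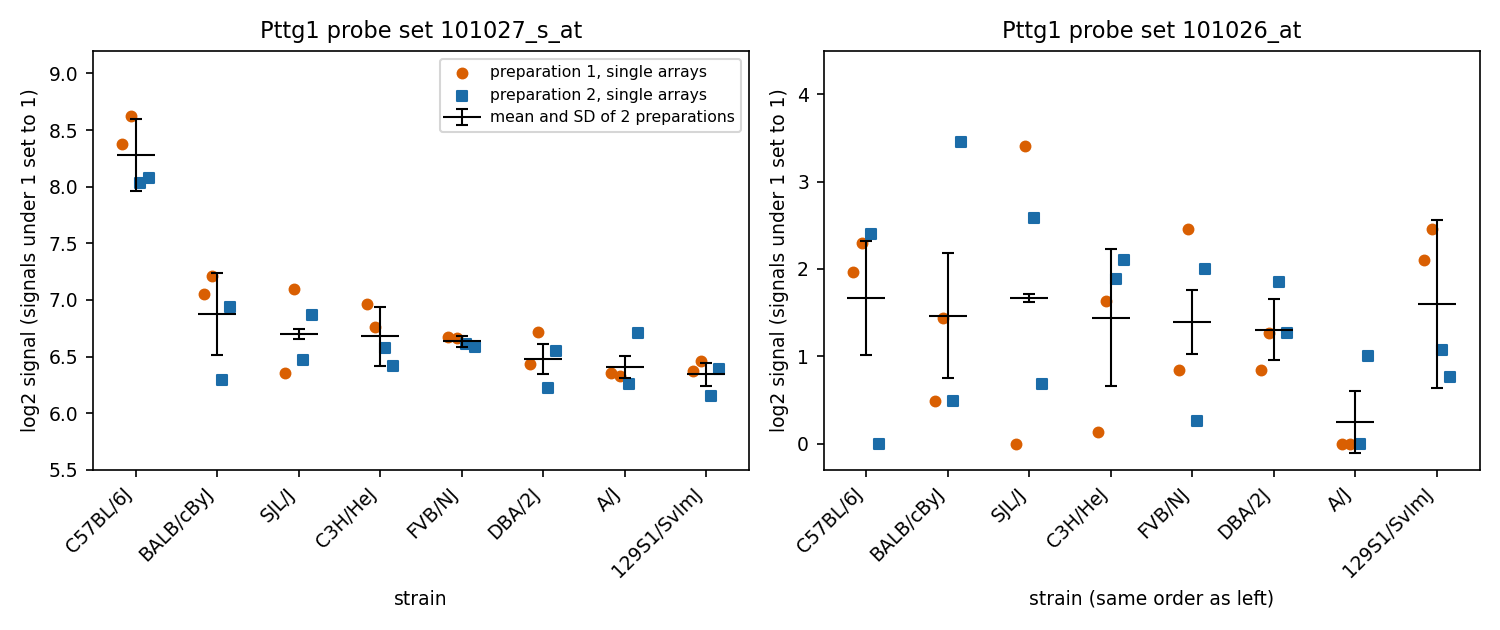
The log2 signal of both Pttg1 probe sets is plotted for all 32 arrays by strain, with circles for preparation 1, squares for preparation 2, and a black bar for the mean and SD of the 2 preparations. On 101027_s_at (left) the 4 arrays of C57BL/6J lie above 8 and all others below 7.3, while on 101026_at (right) the strains overlap near the bottom of the signal range.

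On the log2 scale, with the 2 arrays of a preparation averaged, 101027_s_at averaged 8.28 ± 0.32 in C57BL/6J, 6.87 ± 0.36 in BALB/cByJ, 6.70 ± 0.04 in SJL/J and 6.68 ± 0.26 in C3H/HeJ (SD, n = 2 preparations each). The means were 6.63 ± 0.05 in FVB/NJ, 6.48 ± 0.13 in DBA/2J, 6.41 ± 0.10 in A/J and 6.34 ± 0.10 in hippocampus_129S1SvImJ. The span of 1.94 between C57BL/6J and hippocampus_129S1SvImJ is 3.83-fold. Pttg1 passed limma's moderated F-test across the 8 strains (F = 15.4, adjusted p = 0.0012), a test that called 341 of 7453 probe sets (4.58%), or 1405 with the preparation number as a block. For this probe set strain, which cannot be parted from its 1 pool and 1 cDNA, accounted for 84% of the variance. Preparation accounted for 3.49% and array for 12.5%. The median probe set had 6.73%, 20.9% and 58.3%.

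Compared with the other 7 strains averaged, C57BL/6J was higher by 1.69 ± 0.17 (log2, SE; 95% confidence interval 1.33 to 2.05), or 3.23-fold, with limma's adjusted p = 4.28e-05. In this contrast 68 of 7453 probe sets (0.912%) were called higher and 102 lower, and Pttg1 had the seventh largest difference among those called higher (rank 7). Of the 170 called (2.28%), 40% were higher, with 21.93% higher without preparation 2 of C57BL/6J and 61.95% with arrays centred on their median, a scaling that moved the median of all probe sets by 0.127. Relative to that median Pttg1 stood at 1.72 under both scalings. With the preparation block 494 probe sets were called, and 55 without preparation 1 of C57BL/6J.

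The same held against each strain by itself. The smallest of the 7 differences was that from BALB/cByJ, 1.40 ± 0.22 (log2, SE; 2.65-fold; limma's adjusted p = 0.00238), and the largest that from hippocampus_129S1SvImJ, 1.94 ± 0.22 (adjusted p = 0.000213). Between these came SJL/J (2.99-fold), C3H/HeJ (3.03-fold), FVB/NJ (3.12-fold), DBA/2J (3.48-fold) and A/J (3.65-fold), all with C57BL/6J higher and adjusted p between 0.000281 and 0.00132. The share of all probe sets called higher in C57BL/6J in these pairs was 4.17% against BALB/cByJ, 0.671% against both A/J and hippocampus_129S1SvImJ, 0.564% against DBA/2J, 0.725% against FVB/NJ, 0.644% against SJL/J and 0.886% against C3H/HeJ. Pttg1 was 1 of 7 probe sets (0.0939%) that were called higher in C57BL/6J in all 7 pairs. With the 8 pools themselves as the units, 1 strain against 7, an exact two-sided permutation test gives p = 0.125, the smallest this design allows. It takes this value whenever the strain singled out lies furthest from the rest. Pttg1 was chosen with earlier results of these data known, so neither this p nor limma's p-values are independent support.

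Below C57BL/6J the order of the strains was not resolved. None of the 21 pairs among the other 7 strains passed limma's test (smallest adjusted p = 0.251), and 1 had an unadjusted p under 0.05. That pair was hippocampus_129S1SvImJ minus BALB/cByJ, at -0.53 (95% confidence interval -1.01 to -0.05). From BALB/cByJ to SJL/J the step in mean was 0.18 ± 0.22 (SE), from FVB/NJ to DBA/2J 0.16 ± 0.22, and the other 4 steps between neighbours in the order were 0.02 to 0.07. These intervals still allow differences between neighbours of up to 0.66 on the log2 scale. Against the mean of the rest no other strain passed (adjusted p 0.402 in hippocampus_129S1SvImJ, 0.5 in DBA/2J and 0.664 or more elsewhere).

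The difference was present in each preparation and on each of the 4 days, as coded from the sample titles, on which C57BL/6J was read. In preparation 1 C57BL/6J read 8.50 and the other 7 strains 6.34 to 7.13 (log2), a difference from their mean of 1.83. In preparation 2 it read 8.05 and the others 6.27 to 6.67, a difference of 1.55. Within days A, B, C and D, with 1 array of C57BL/6J and 6 or 7 arrays of other strains each, the difference was 1.78, 1.86, 1.64 and 1.49. On none of the 4 days did another strain's array reach that of C57BL/6J. Days E and F held arrays of BALB/cByJ and FVB/NJ alone.

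**Figure D2:**
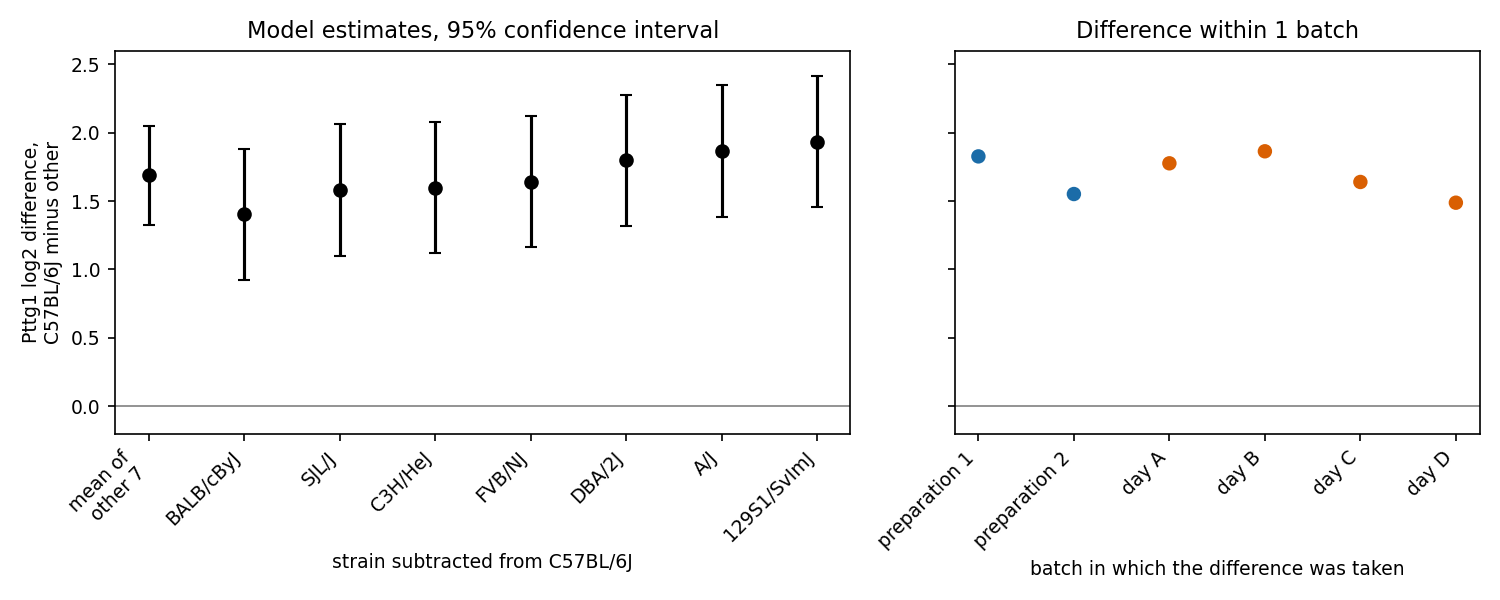
The log2 difference of Pttg1 (101027_s_at), C57BL/6J minus other, is plotted as the model estimate with its 95% confidence interval against the mean of the other 7 strains and each strain (left), and as the plain difference from the mean of the other strains within each preparation and day (right). No interval on the left reaches below 0.92, and the within-batch values lie between 1.49 and 1.86.

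Preparation 1 gave a higher Pttg1 signal than preparation 2 in 7 of 8 strains. The mean of preparation 1 minus preparation 2 was 0.21 ± 0.22 (log2, SD, n = 8 strains; exact two-sided sign-flip test, p = 0.0391), from -0.14 in A/J to 0.51 in BALB/cByJ. In C57BL/6J it was 0.45. Without FVB/NJ, left out after seeing the data, the mean was 0.22 ± 0.23 (SD, n = 7 strains; exact test, p = 0.0469). Preparation and day cannot be told apart, because each strain's preparations were read on different days. This shift is small beside the difference between C57BL/6J and the other strains.

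The second probe set, 101026_at, carried no strain difference that could be read. Its signal was 0.4 to 11 on all 32 arrays (median 2.40), and it fell below the signal limit for testing, a mean of 21.3. C57BL/6J read 3.9, 4.9, 5.3 and 0.9, within the range of the other strains. In the fit of all 12422 probe sets without that limit, C57BL/6J minus the rest was 0.36 ± 0.46 (log2, SE; limma's adjusted p = 0.879). The same fit gave 1.69 for 101027_s_at (adjusted p = 4.59e-05). The suffix of 101027_s_at marks a probe set that can read more than 1 transcript, so its assignment to Pttg1 alone is uncertain, and the other probe set provides no second reading at a measurable level.

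The machinery that securin acts in was examined next. Of 36 genes for separase, cohesin and the anaphase-promoting complex, 22 had a single-symbol probe set and 18 passed the signal limit. Espl1, which encodes separase, and Fzr1, an activator of the complex, were not among the 22. In C57BL/6J minus the rest, 0 of the 18 were called higher and 1 lower by limma's test at an adjusted p under 0.05 (over all probe sets 0.912% were called higher and 1.37% lower). Their median difference was 0.14 (log2), beside -0.02 over 5660 tested genes.

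Cdc20, the activator that turns the anaphase-promoting complex on securin, read 27.4 to 49.0 in C57BL/6J and 9.3 to 104.8 on the other arrays (median 41.2). The C57BL/6J values lay inside the range of the others (difference -0.04 ± 0.25, log2, SE; limma's adjusted p = 0.985). Rad21, the cohesin subunit that separase cuts, read 238.8 to 408.4 in C57BL/6J and 93.9 to 434.7 elsewhere (median 295.15), also overlapping (0.18 ± 0.29, adjusted p = 0.894). Mau2, a subunit of the cohesin loader, was the only gene of this list past the test. It averaged 5.63 ± 0.06 in C57BL/6J, against 5.77 to 6.69 in the other strains (SD, n = 2 preparations), a difference of -0.78 ± 0.17 (SE; adjusted p = 0.0252). That call was lost with quantile normalization (adjusted p = 0.0523), with median centring (adjusted p = 0.0590), without BALB/cByJ array 1 (adjusted p = 0.0866), without the 11 arrays high in sense-strand controls (adjusted p = 0.0521) and without preparation 1 or 2 of C57BL/6J (adjusted p = 0.382 and 0.140). With the preparation block 2 of the 18 were called higher, Anapc4 of the anaphase-promoting complex and Smc3 of the cohesin ring. Smc3 was as high in DBA/2J (6.15, log2) as in C57BL/6J (6.14). Called lower were 2, Mau2 and the ubiquitin-conjugating enzyme Ube2c, beside 494 of all 7453 probe sets called in either direction. Ube2c averaged 3.86 ± 1.59 in C57BL/6J (log2, SD, n = 2 preparations), under the signal limit of 4.41. Without the block Ube2c was not called (limma's adjusted p = 0.179).

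**Figure D3:**
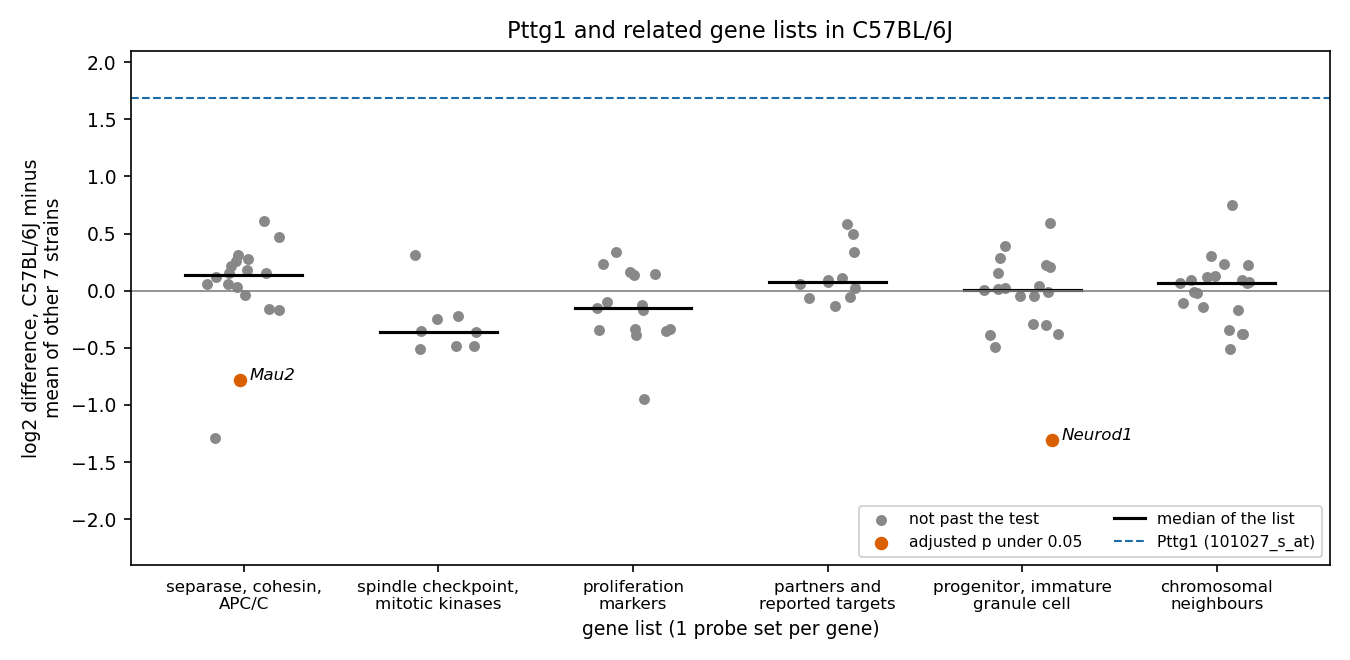
Each point is 1 tested gene, plotted as its log2 difference, C57BL/6J minus the mean of the other 7 strains, in 6 gene lists, with orange for an adjusted p under 0.05, black bars for list medians and a dashed line for Pttg1 (101027_s_at). Every listed gene lies below the dashed line at 1.69, and Mau2 and Neurod1 are the 2 genes past the test, both lower.

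Among genes of the spindle checkpoint and the mitotic kinases, 8 of 29 passed the signal limit, and among proliferation markers 15 of 28. Limma's test of C57BL/6J against the rest called 0 of the 8 and 0 of the 15, beside 2.28% of all probe sets. With the preparation block it called 0 of the 8 and 1 of the 15, beside 494 of all 7453 probe sets. The 1 called was the cell cycle inhibitor gene Cdkn1a, which was lower. Median differences were -0.36 and -0.15 (log2), and with arrays centred on their median -0.23 and -0.02. Mki67, which marks dividing cells, was tested on 161931_r_at, where C57BL/6J read 8.6 to 27.5 and the other arrays 3.9 to 46.9 (difference -0.39 ± 0.47, SE; adjusted p = 0.834). Its other probe set, 99457_at, read 0.6 to 4.5 in C57BL/6J and 0.3 to 12.2 elsewhere and fell below the limit. Both probe sets thus read dividing cells only near or under the signal limit.

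Among partners and reported targets of securin the calls depended on the block. Of 18 listed genes 11 were tested, and 0 were called by limma against the rest, beside 2.28% of all probe sets. Their median difference was 0.07 (log2). The preparation block called Ptpn1, a tyrosine phosphatase, and Skp1 higher, beside 494 of all 7453 probe sets called in either direction. Pttg1ip, a protein that binds securin and carries it into the nucleus, read 142.3 to 301.5 in C57BL/6J and 116.8 to 343.3 on the other arrays (median 219.05). The groups overlapped (0.02 ± 0.30, SE; adjusted p = 0.990). Skp1, a subunit of a ubiquitin ligase that also acts on cell cycle proteins, passed the F-test across strains (adjusted p = 0.0142), with 9.19 ± 0.33 in hippocampus_129S1SvImJ, 9.16 ± 0.05 in C57BL/6J and 7.91 ± 0.22 in SJL/J, the lowest strain. That call was lost without preparation 1 of SJL/J (adjusted p = 0.0602) and with no variance trend (adjusted p = 0.0652).

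Of 22 genes of neural progenitors and immature granule cells, 19 were tested. Of these 4 passed the F-test (232 of all 5660 tested genes) and 1 was lower in C57BL/6J (62 of 5660). That gene was Neurod1, a transcription factor of newly formed granule cells, which averaged 4.90 ± 0.19 in C57BL/6J, while the other 7 averaged 5.30 to 6.63 (log2, SD, n = 2 preparations). The difference was -1.30 ± 0.21 (SE; limma's adjusted p = 0.00279), and its call was lost without preparation 2 of C57BL/6J (adjusted p = 0.0732). The other 3 that passed the F-test had their extremes elsewhere. Hopx was lowest in A/J (6.87 ± 0.33), Sox2 was lowest in BALB/cByJ (7.03 ± 0.08), a call lost without either preparation of that strain (adjusted p = 0.229 and 0.149), and Fabp7 was lowest in BALB/cByJ (7.40 ± 0.01) and highest in A/J (8.70 ± 0.02). The call of Fabp7 was lost without all arrays of BALB/cByJ (adjusted p = 0.132). It was also lost without the 11 arrays high in sense-strand controls, which include all arrays of BALB/cByJ. The median difference of the 19 was 0.00. With the preparation block 7 passed the F-test (1405 of all 7453 probe sets). In C57BL/6J the block called Hopx higher (0.59, log2) and Neurod1 and Fabp7 lower (494 of 7453 probe sets in either direction). The highest strain mean of Hopx was that of hippocampus_129S1SvImJ, at 9.09 against 8.99 in C57BL/6J.

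The chromosomal neighbours of Pttg1 were examined next. The 10 nearest tested genes on each side, in the order of the RefSeq gene table, ran from Stk10 to Gfpt2. By limma's adjusted p, 0 of these 20 passed the F-test, which 4.58% of all probe sets passed. In the contrast of C57BL/6J with the rest 0 of the 20 passed, beside 2.28% of all probe sets. At those shares a list of 20 would hold few calls or none. The differences of the 20 in this contrast ran from -0.51 to 0.75 (median 0.07, log2). Slu7, a splicing factor gene that is the next tested gene on one side, differed by -0.02 ± 0.16 (SE; adjusted p = 0.983). Gabrb2, a GABA-A receptor subunit and the next tested gene on the other side, differed by -0.35 ± 0.22 (adjusted p = 0.585). Tenm2, a teneurin of synapses, was at -0.51 ± 0.13 (adjusted p = 0.0520) and was called lower with quantile normalization and with the preparation block, whereas Gfpt2, an enzyme of the hexosamine pathway, was at 0.75 ± 0.36 (adjusted p = 0.412).

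**Figure D4:**
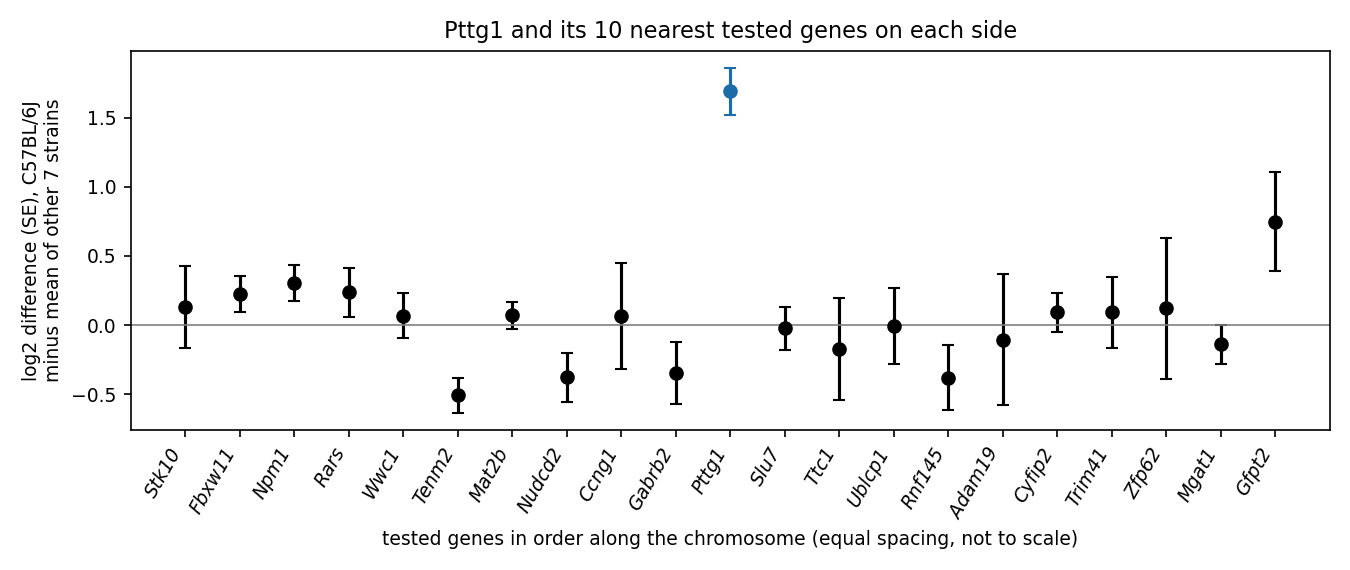
The log2 difference (error bars, SE), C57BL/6J minus the mean of the other 7 strains, is plotted for Pttg1 (blue) and the 10 nearest tested genes on each side in chromosomal order. Pttg1 stands at 1.69 and its 20 neighbours between -0.51 and 0.75.

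The genes most like Pttg1 were ranked by Pearson's r with 101027_s_at over the 16 preparation values among 6742 tested probe sets with 1 symbol, as a description without a test. The highest were the probe set annotated to Mir686 (r = 0.90), Prdx2, a peroxiredoxin (0.88), Ociad1, a protein of endosomes and mitochondria (0.88), Sst, the interneuron peptide somatostatin (0.88), and Aldh7a1, an aldehyde dehydrogenase of lysine breakdown (0.86). The lowest were Cap1, a regulator of actin (-0.93), Gnb1, a G protein beta subunit, on 2 probe sets (-0.92 and -0.88), Gabra2, a GABA-A receptor subunit (-0.90), and Lpl, a lipoprotein lipase (-0.90). The points share strain pools and arrays, and C57BL/6J sets most of the likeness. Without its 2 preparations r over the remaining 14 ran from -0.29 (Ociad1) to 0.75 (Sst) for the first 5, and from -0.38 (Cap1) to 0.53 (Gnb1 97458_at) for the last 5.

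Sst differed from the other genes of this group. It kept r = 0.75 without C57BL/6J and 0.73 over the 7 other strain means, but its difference in C57BL/6J was small, with 10.53 ± 0.08 in C57BL/6J against 9.98 to 10.28 in the other strains (log2; 0.43 ± 0.11, SE; limma's adjusted p = 0.0598). It was called higher with quantile normalization and with the preparation block. By contrast, the probe set of Mir686 was 6.39-fold higher in C57BL/6J and Prdx2 3.92-fold higher, with r of -0.18 and -0.07 without that strain. Ociad1 was 1.94-fold higher (adjusted p = 8.15e-05) and Aldh7a1 1.77-fold higher (adjusted p = 0.00314). The probe sets of highest and lowest r were picked from the same values, in which C57BL/6J sets most of the likeness to Pttg1. Large differences in C57BL/6J were thus favoured by the choice, and their p-values are not independent support. The call of Aldh7a1 was lost without preparation 1 or 2 of C57BL/6J (adjusted p = 0.0891 and 0.0570). Gabra2 was lower in C57BL/6J (3.57-fold), as were both probe sets of Gnb1 (8.07-fold and 2.99-fold) and Cap1 (5.73-fold). Lpl was also lower, at 4.29 in C57BL/6J against 5.63 to 6.26 in the other strains (log2), but the mean in C57BL/6J lay under the signal limit of 4.41, and the difference of -1.66 was -0.57 with an offset of 64.

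**Figure D5:**
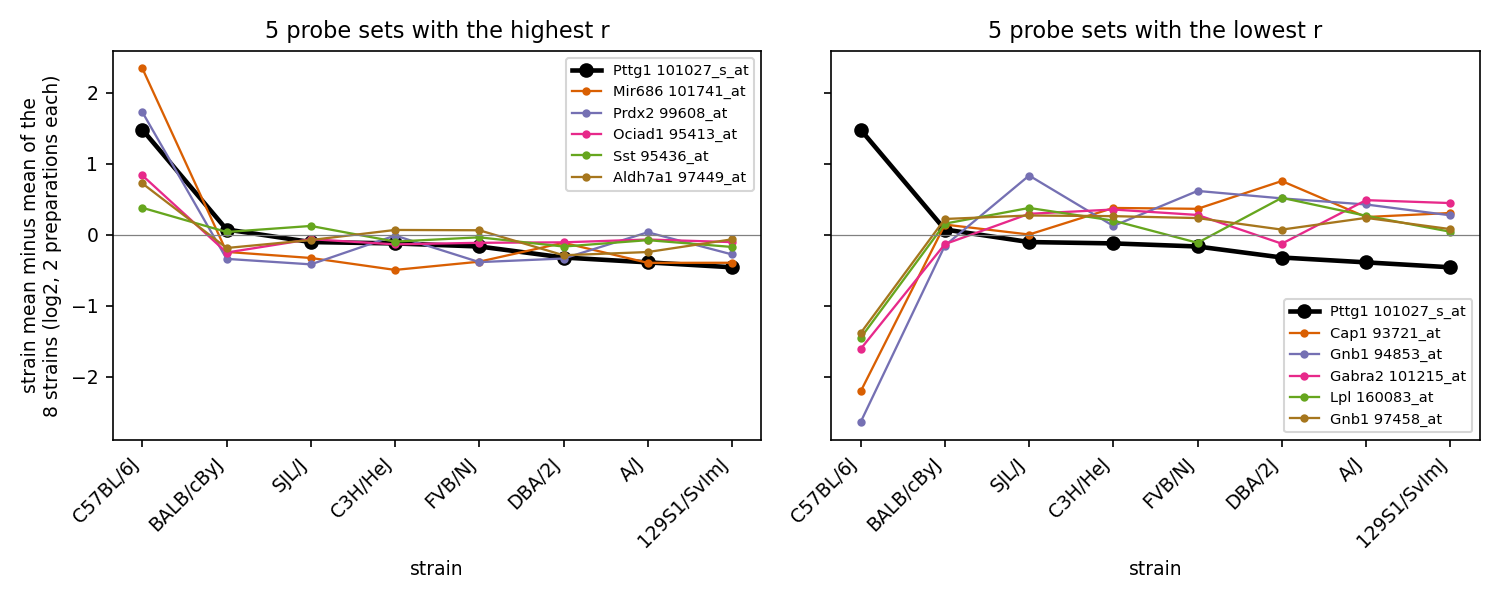
Strain means, as log2 relative to the mean of the 8 strains, are plotted for Pttg1 (black) with the 5 probe sets of highest r (left) and the 5 of lowest r (right). In C57BL/6J Pttg1 and the first 5 are highest and the last 5 lowest, and among the other 7 strains r with Pttg1 ran from -0.67 to 0.73 for the first 5.

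Single markers of some cell types passed the test of C57BL/6J against the rest. Over all probe sets that test called 2.28%, or 494 of 7453 with the preparation block. Markers of hippocampal excitatory neurons were present, with 7 of 10 listed genes on the array and all 7 past the signal limit, 0 of them called in C57BL/6J against the rest by limma on the probe set of highest mean, and 2, Camk2a and Neurod2, lower with the preparation block. The lowest strain on these genes was DBA/2J and not C57BL/6J. Camk2a averaged 8.02 in DBA/2J and 8.55 in C57BL/6J on 93660_at, and 7.85 and 8.14 on 93659_at (log2). Neurod2 averaged 8.17 in DBA/2J and 8.21 in C57BL/6J. The summed signal of the 7 excitatory neuron markers was 2176 to 2956 in C57BL/6J (mean 2601) and 2054 to 4537 on the other arrays (mean 3487). A second probe set of Camk2a was lower (adjusted p = 0.0234, and 0.632 without preparation 1 of C57BL/6J). The summed signal of the 5 measured oligodendrocyte markers was 5053 to 7047 in C57BL/6J and 3796 to 5483 on the other arrays. Of the 4 tested, Mag, a myelin adhesion protein, was called higher (0.85 ± 0.14, SE; adjusted p = 0.00285, and 0.182 without preparation 1 of C57BL/6J). The other probe set of Mag, 161846_r_at, went the other way and was not called (-0.32, limma's adjusted p = 0.751). Mobp was called higher on 99046_at (0.85 ± 0.15, SE; limma's adjusted p = 0.00719), a call lost without C57BL/6J array 1 (adjusted p = 0.133). Its other probe sets differed by 0.39, 0.58 and 0.55 and were not called. With the preparation block Mag and Mobp, on the probe set of highest mean, were called higher. Summed interneuron markers were 3844 to 4147 in C57BL/6J and 3024 to 3985 elsewhere, with 0 of 7 called (3 higher and 1 lower with the preparation block). Summed choroid plexus markers were 354.1 to 392.2 in C57BL/6J and 388.9 to 880.3 elsewhere, and 1 of 4, Ttr, was lower (-1.60 ± 0.15, SE; adjusted p = 3.1e-05). With the preparation block Igf2 of this list was called lower as well.

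The sums overlapped for the remaining cell types, as they did for those above. In C57BL/6J against the other arrays they were 4016 to 4789 against 3184 to 5058 for astrocytes, 1132 to 1374 against 898.9 to 1429 for microglia, and 724 to 786.9 against 542.8 to 1524 for blood. Of 5 tested astrocyte markers 0 were called, while the preparation block called Aldoc higher and Slc1a2 lower. On 96020_at C1qb, a complement subunit of microglia, averaged 7.52 ± 0.04 in C57BL/6J, against 5.39 to 6.52 in the other strains (log2). The difference was 1.38 (limma's adjusted p = 0.0562), and it was called higher with median centring and with the preparation block. The other probe set of C1qb, 162276_i_at, differed by 0.15 (adjusted p = 0.946). Pituitary markers summed to 117 to 169.3 in C57BL/6J and 110.1 to 306 elsewhere, and 0 of 4 tested were called. Tshb of the pituitary, Alas2 of blood, Aif1 of microglia and Cnp of oligodendrocytes were under the signal limit. Endothelial and pericyte markers summed to 275.4 to 417 in C57BL/6J and 177.7 to 448.2 elsewhere. Rgs5 of pericytes was called higher (2.30-fold, adjusted p = 0.0362), a call lost in 13 of 59 other settings, among them leaving out either preparation of C57BL/6J (adjusted p = 0.183 and 0.344). The other probe set of Rgs5, 96180_at, was not called (0.53, log2, limma's adjusted p = 0.556). On both probe sets of Rgs5 the highest strain was DBA/2J, at 6.64 and 5.80, against 6.16 and 5.20 in C57BL/6J (log2). The part of any of these markers in the Pttg1 difference was not tested.

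Measures of array quality in C57BL/6J overlapped with those of the other strains. The median signal was 29.4 to 37.7 in C57BL/6J and 32.8 to 43.65 on the other arrays. The log2 ratio of 3' to 5' signal was -0.47 to -0.11 in C57BL/6J and -0.52 to -0.02 elsewhere for Gapdh, and 0.25 to 0.68 in C57BL/6J and -0.18 to 0.46 elsewhere for actin. Sense-strand controls of actin and Gapdh, high on 11 arrays of other strains, were 5.11 to 5.64 in C57BL/6J and 4.91 to 7.84 elsewhere (log2). All arrays of BALB/cByJ are among the 11, so a fit without them lacks that strain. Without those 11 arrays Pttg1 was 1.76 higher in C57BL/6J (limma's adjusted p = 0.000486), and without all arrays of BALB/cByJ it was 1.74 higher (adjusted p = 4.66e-05), both settings chosen after seeing the data.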

How the data were processed

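Hippocampal RNA of 8 mouse strains was read on 32 arrays, grouped by the strain and number in the sample titles. The deposited values are linear signal intensities, 1 per probe set and array, made by the authors with MAS5 per the submitters' processing notes. No label gives MAS5's scaling target or its detection calls. The mean with 2% trimmed from each end was 100.1 on every array, so no further scaling was done. Genes were named from the platform annotation (10855 probe sets with 1 symbol, 396 with several).

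Signals under 1 were set to 1 (2.14% of values), log2 was taken, and tests were run on the upper 60% of 12422 probe sets by mean (7453). The 2 arrays of a preparation were averaged, and 16 values were fitted with limma 3.58.1 in R 4.3.3 (8 strain means, eBayes with trend, 8 residual degrees of freedom). P-values were adjusted by Benjamini-Hochberg over all tested probe sets, threshold 0.05. The probe set of highest mean stood for a gene in list counts. The fit was tested on simulated data.

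The array numbers pair the samples (for FVB/NJ array 2 with doubt), as the design text ties them to the cRNA preparation; preparation differences correlated for all 28 strain pairs (r from 0.109 to 0.557). No arrays held identical values. Alternatives covered scaling, filter, offset, block, arrays as units, day, trend and leaving out arrays or preparations.

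Pttg1 and the gene lists were chosen with earlier results of these data known. Named genes are both Pttg1 probe sets, list members past a test, 6 genes whatever their result, the 10 nearest tested genes on each side, and the 5 probe sets of highest and 5 of lowest r. Camk2a, Nrgn, Slc32a1, Ctss, Mobp and Hba-a1, cell type markers past the F-test, are described by their list sums. For Camk2a and Mobp single probe sets are given as well.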

Additional observations from a re-analysis of the deposited data

Results flagged for a closer look

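Of 30 sets of 4 arrays examined for Pttg1 and the genes named with it, 3 had 1 array far from the other 3, where chance alone marks about 1 in 20. On 101026_at of Pttg1, A/J array 4 was highest at 1.00 on the log2 scale (signal 2), with the other 3 arrays at or under the floor of 1, so this gap rests on the floor. On 160083_at of Lpl 1 array of C57BL/6J was lowest at 3.07 (signal 8.4), and on 97458_at of Gnb1 1 array of C57BL/6J was highest at 9.41 (signal 682.5). No set of 4 arrays of 101027_s_at of Pttg1 had such an array.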

How the results depend on the processing

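Pttg1 (101027_s_at) passed the F-test and each contrast of C57BL/6J in every one of the 60 distinct alternatives run (58 for the pair with BALB/cByJ). Its difference from the other 7 strains ran from 1.22 with an offset of 64, which compresses differences, to 1.91 without preparation 2 of C57BL/6J. Without preparation 1 of C57BL/6J it was 1.47, with the highest adjusted p, 0.00721 (0.0400 for the F-test, 0.0418 for the pair with BALB/cByJ). Here the 1 remaining preparation is assumed to vary like the other strains. With the preparation number as a replicate block it was 1.69 (adjusted p = 1.02e-06). The block changed no call of Pttg1. Without FVB/NJ array 2 the difference was 1.69.

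Counts of probe sets moved more. The F-test called 1405 with the replicate block, 667 with single arrays and preparation as a random block, 2324 with single arrays and the day as a block, and 162 without the 11 arrays high in sense-strand controls, where fewer arrays were fitted. The contrast of C57BL/6J called 494, 279 and 979 in the first 3 of these settings. Leaving out 1 array or preparation gave 260 to 380 for the F-test and 55 to 219 for the contrast. The fit without the 11 arrays held no array of BALB/cByJ. The cause of these shifts was not tested. The F-test call of Mau2 was kept in 34 of 60 settings and that of Sox2 in 42. Without detection calls, signals as low as those of 101026_at set no level for Pttg1.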
